A study of Mus musculus with 20 samples.

Results

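Yap1, Wwtr1, Tead1, Tead2, Tead3, Tead4 and Vgll4 encode the co-activators YAP1 and TAZ, the 4 TEAD transcription factors that bring them to DNA, and VGLL4, a protein that competes with them for the TEADs. They are described here in adult mouse spinal cord neural stem cells grown with and without deletion of Yap1. The 7 genes were chosen by symbol, with earlier results of these data known. All 7 are among the 16927 genes listed in the deposited table. All 7 also passed the filter on low counts, as did 13046 genes in all (77.1%).

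The study measured RNA in spinal cord cells cultured as neurospheres, free-floating clusters of dividing stem and progenitor cells. The KO differentiation and WT differentiation groups were taken after 5 days of differentiation. The KO proliferation and WT proliferation groups were taken after 7 days in medium with EGF, FGF2 and heparin, additions that the labels name for proliferation only. Recombination of Yap1 was induced with an adenovirus that expresses Cre from the CMV promoter, which is active in most cell types, in cells whose Yap1 exon 3 can be deleted by Cre. The treatment text is the same for all samples and does not say whether the WT cells carried the deletable allele or received the virus, so effects of virus, Cre and loss of Yap1 cannot be told apart. The labels name 20 samples, 5 in each of the 4 groups, and those analysed here are the 8 with numbers 7 and 8. Nothing says that they came from separate animals or cultures, so each p-value measures only the spread between these libraries, which may be technical.

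In the Hippo pathway, the MST kinases (Stk3 and Stk4) with SAV1 activate the LATS kinases, and LATS phosphorylates YAP1 and TAZ. Phosphorylated YAP1 and TAZ are held in the cytoplasm by 14-3-3 proteins or degraded, while the unphosphorylated proteins enter the nucleus, bind a TEAD and raise transcription of growth and cytoskeletal genes. In the nervous system YAP1 and TAZ are known for roles in progenitor growth and in astrocytes, and TEAD2 for its high level in embryonic neural progenitors. This control acts largely on protein location and stability, which RNA levels do not measure.

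Exon 3 of Yap1 is shown because it is the stretch that Cre removes. In the GENCODE M21 transcript Yap1-201 it is the 116-base exon at chr9:7973796-7973911 (GRCm38, minus strand). It is wholly coding, encodes the end of the first WW domain (a fold that binds proline-rich peptides), and its length is not a multiple of 3.
Yap1 exon 3: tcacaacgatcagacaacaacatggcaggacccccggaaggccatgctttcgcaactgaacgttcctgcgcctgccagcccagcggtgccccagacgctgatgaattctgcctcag
The deposited counts are per gene and not per exon, so they do not show how much of this exon was lost. The stretch with the longest exact match between any of the 7 coding sequences is shown because reads of one TEAD could be counted for another there. It lies near the end of the coding sequence, in the part that encodes the YAP-binding domain, and runs for 59 bases. Capitals mark bases that differ from Tead3.
Tead1: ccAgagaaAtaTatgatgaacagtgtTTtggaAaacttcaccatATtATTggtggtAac
Tead2: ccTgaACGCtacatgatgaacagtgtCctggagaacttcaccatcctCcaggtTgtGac
Tead3: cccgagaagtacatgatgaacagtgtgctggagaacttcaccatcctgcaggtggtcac
Tead4: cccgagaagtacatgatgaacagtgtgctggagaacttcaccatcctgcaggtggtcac
Tead3 and Tead4 are identical over these 59 bases, while Tead1 differs from Tead3 at 12 of them (79.7% identity) and Tead2 at 9 (84.7% identity). The next longest exact match was 35 bases between Tead2 and Tead3, and Yap1 and Wwtr1 shared at most 15 bases in a row. How reads that match several genes were counted is not given in the sources used here, so the low Tead4 counts in particular could hold reads of Tead3.

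The 8 libraries held 18075595 to 18940983 counts each. All 7 markers of neural stem or progenitor cells (Nes, Sox2, Sox9, Pax6, Fabp7, Vim and Prom1) were present in every group, summing to 3185 to 3857 CPM in KO differentiation, 3510 to 3998 CPM in WT differentiation, 4494 to 4584 CPM in KO proliferation and 5442 to 5448 CPM in WT proliferation. CPM are counts scaled to one common library size after TMM scaling, which corrects for differences in library makeup. The 7 progenitor markers did not move together, as 4 were higher and 3 lower in differentiation by fitted log2 fold change in both genotypes. Nes had 172 to 218 CPM in differentiation libraries and 1095 to 1559 CPM in proliferation libraries. Sox2 had 488 to 663 CPM and 166 to 182 CPM in the same order. Prom1 was near 0 in some libraries, with 0.053 CPM in WT proliferation replicate 7. The markers of dividing cells (Mki67, Top2a, Ccnb1 and Cdk1) summed to at most 5.03 CPM in KO differentiation and 9.06 CPM in WT differentiation, against at least 1609 CPM in KO proliferation and 1666 CPM in WT proliferation. The libraries are of bulk cells, in which fewer cells of a type and less RNA per cell cannot be told apart.

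Yap1, the targeted gene, was lower in every KO library than in any WT library. It lies on chromosome 9 from 7931999 to 8004638, minus strand (RefSeq GRCm38.p6, as for all gene positions here). In proliferation it had 27.0 and 32.7 CPM in KO libraries (replicates 7 and 8, the order used throughout), against 170.5 and 150.4 CPM in WT libraries. The KO mean was 18.6% of the WT mean, a log2 fold change of -2.42 (SE 0.162, 95% interval -2.81 to -2.04) with an adjusted p of 0.0322 by edgeR's quasi-likelihood test with Benjamini-Hochberg adjustment. Yap1 was the only gene of the 13046 that passed the threshold of 0.05 in this comparison (0.00767%). That call did not survive the loss of any 1 of the 8 libraries. Without KO proliferation replicate 7 or 8 the adjusted p in edgeR was 0.44 or 0.244, without WT proliferation replicate 7 or 8 it was 0.299 or 0.205, without KO differentiation replicate 7 or 8 it was 0.0854 or 0.0869, and without WT differentiation replicate 7 or 8 it was 0.176 or 0.157. The log2 fold change stayed between -2.58 and -2.30 throughout these 8 fits. With all libraries, 11 genes (0.0663%) passed in DESeq2 and 2 (0.0153%) in edgeR with a term for the replicate number.

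In differentiation Yap1 had 22.6 and 27.8 CPM in KO libraries, against 107 and 93.7 CPM in WT libraries. The groups were again far apart, with a KO mean of 25.1% of the WT mean. The log2 fold change was -1.99 (SE 0.161, 95% interval -2.38 to -1.61), and with an adjusted p of 0.106 in edgeR it missed the threshold, although it had the smallest unadjusted p of all genes tested (8.13e-06). No gene passed in this comparison with edgeR (0% of 13046), where an unadjusted p under 0.05 was reached by 244 genes that were higher (1.87%) and 378 that were lower (2.9%). There 36 genes (0.24%) passed with DESeq2 and 3 (0.023%) in edgeR with a term for the replicate number. The adjusted p of Yap1 was 0.0389 in edgeR with no filter on low counts, 0.0172 in edgeR with a term for the replicate number and 2.68e-22 in DESeq2. In the authors' deposited table Yap1 had a log2 fold change of -1.99 with a q-value of 1.69e-16 in differentiation, and of -2.42 with a q-value of 8.77e-36 in proliferation.

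Yap1 also differed between culture conditions. In WT cells it fell in differentiation to 62.5% of its proliferation mean, a log2 fold change of -0.68 (SE 0.154, adjusted p = 0.0097 in edgeR), and neither WT differentiation library reached the lower WT proliferation library. The adjusted p in edgeR was 0.0565 without WT proliferation replicate 7 and 0.0613 without WT differentiation replicate 8, each with a log2 fold change of -0.58. In KO cells the remaining Yap1 transcript had a log2 fold change of -0.25 between differentiation and proliferation (95% interval -0.62 to 0.13, adjusted p = 0.231 in edgeR), and the libraries of both conditions overlapped. The KO effect in differentiation minus that in proliferation was 0.43 on the log2 scale (95% interval -0.09 to 0.96), which did not pass the test (adjusted p = 0.981 in edgeR). Over the 4 groups the order of Yap1 levels was thus WT proliferation, WT differentiation, then both KO groups, which did not differ beyond their spread.

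**Figure D1:**
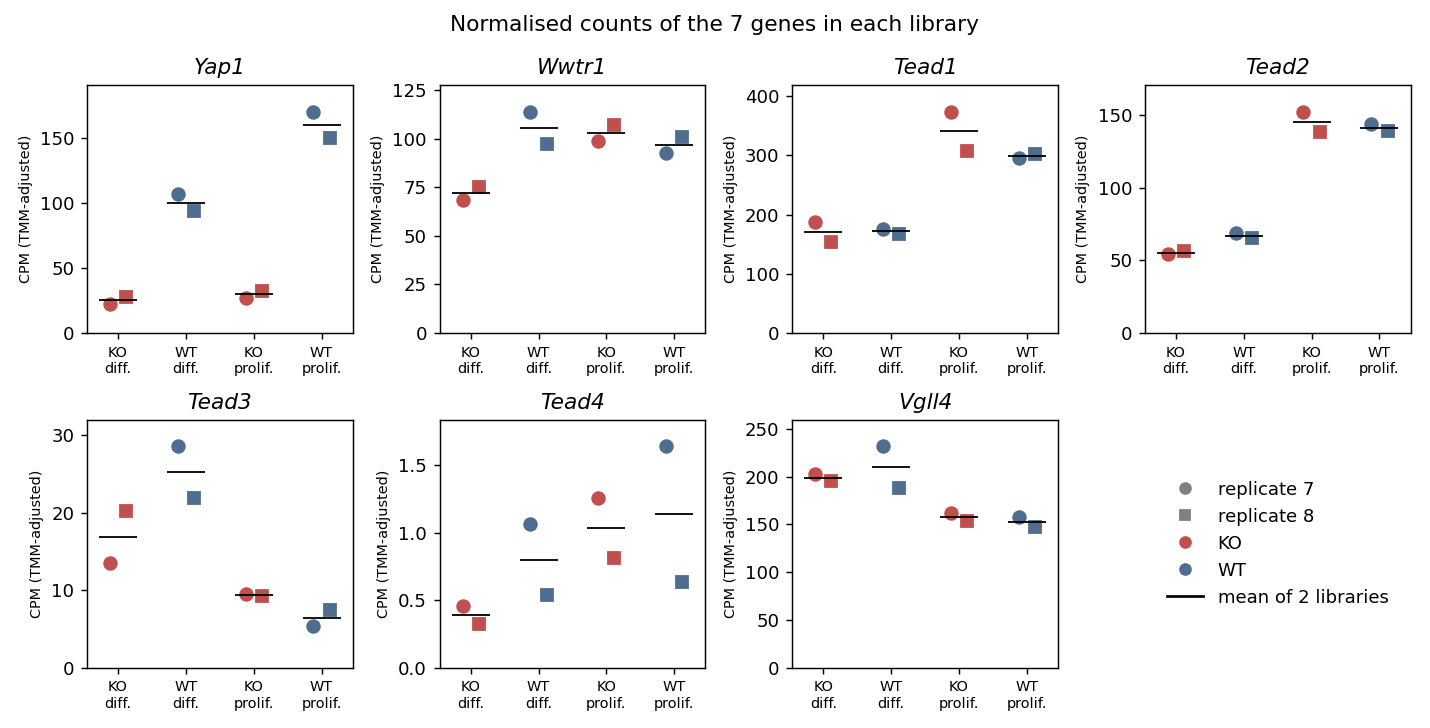
Normalised counts (CPM, TMM-adjusted, linear axes from 0) of the 7 genes in each of the 8 libraries, with KO in red, WT in blue, circles for replicate 7, squares for replicate 8 and a bar at the mean of each pair. Yap1 lies between 22.6 and 32.7 CPM in the 4 KO libraries and between 93.7 and 170.5 CPM in the 4 WT libraries, while Tead1 and Tead2 divide by culture condition.

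Wwtr1, which encodes TAZ, lies on chromosome 3 from 57455644 to 57575910, minus strand, and overlaps the pseudogene Gm16016, which is not listed in the table. Its reads and those of the overlapping gene cannot be separated here, as the sources used do not say whether counting used the strand. In proliferation it had 98.6 and 107 CPM in KO libraries, against 92.5 and 101 CPM in WT libraries. The groups overlapped, and the log2 fold change was 0.09 with a 95% interval of -0.20 to 0.37 (adjusted p = 1 in edgeR).

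In differentiation Wwtr1 had 68.4 and 75.3 CPM in KO libraries, against 114 and 97.3 CPM in WT libraries. Both KO libraries lay below both WT libraries, with a KO mean of 68.1% of the WT mean. The log2 fold change was -0.56 (SE 0.12, 95% interval -0.84 to -0.27) with an unadjusted p of 0.00281, the 34th smallest of all genes, but the adjusted p was 0.909 in edgeR and 0.0635 in DESeq2, so it did not pass. It was -0.74 within replicate 7 and -0.37 within replicate 8. The value in the authors' deposited table was -0.55 (q-value 0.557).

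Wwtr1 fell between conditions in KO cells, with a log2 fold change of -0.52 in differentiation against proliferation (SE 0.12, adjusted p = 0.0116 in edgeR), and the libraries of the conditions did not overlap. Without KO proliferation replicate 8 or KO differentiation replicate 7 the log2 fold change was -0.45 with an adjusted p in edgeR of 0.066 or 0.0507. In WT cells it was 0.13 (95% interval -0.16 to 0.41, adjusted p = 0.401 in edgeR) with overlapping libraries. The test of this difference between genotypes, equal to the difference between the KO effects, gave -0.64 (SE 0.169, 95% interval -1.05 to -0.24, unadjusted p = 0.00748) and did not pass after adjustment (adjusted p = 0.981 in edgeR). The KO differentiation libraries stand in both comparisons in which Wwtr1 was low. Wwtr1 thus had 1 group below the other 3, which overlapped each other between 92.5 and 114 CPM.

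Levels of different genes were compared on the authors' deposited TPM, which are scaled by gene length. In TPM, Wwtr1 stood above Yap1 in every KO library and below it in every WT library. The ratio of Wwtr1 to Yap1 averaged 2.07 ± 0.217 in KO differentiation and 0.895 ± 0.00394 in WT differentiation, and 2.53 ± 0.0325 in KO proliferation and 0.506 ± 0.0773 in WT proliferation (SD, n = 2 each). On counts per kilobase of annotated exon, a cruder length scale, the ratios were 5.56, 2.04, 6.7 and 1.18 in the same order, so that Wwtr1 stood above Yap1 in WT cells too. The rank of TAZ against YAP1 transcript in WT cells therefore depends on the length scale. A fixed exon length cancels when KO is set against WT, so this scale is no test of the higher ratio in KO cells. That ratio has the targeted gene as its denominator.

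The sum of Yap1 and Wwtr1 was 48.3 ± 7.97 TPM in KO differentiation and 102 ± 8.2 TPM in WT differentiation, and 63.1 ± 5.45 TPM in KO proliferation and 123 ± 1.18 TPM in WT proliferation (SD, n = 2 each). No KO library reached the sum of any WT library. In TPM it was also lower than the summed level of the 4 TEAD genes in every library, and the ratio of co-activator to TEAD transcript was 0.439 in KO differentiation and 0.777 in WT differentiation, and 0.274 in KO proliferation and 0.589 in WT proliferation. On counts per kilobase of exon this ratio was 0.666 in KO differentiation and 1.07 in WT differentiation, and 0.436 in KO proliferation and 0.712 in WT proliferation, so that in WT differentiation the co-activator sum was not below the TEAD sum on that scale. These are transcript levels per length and give no ratio of proteins.

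**Figure D2:**
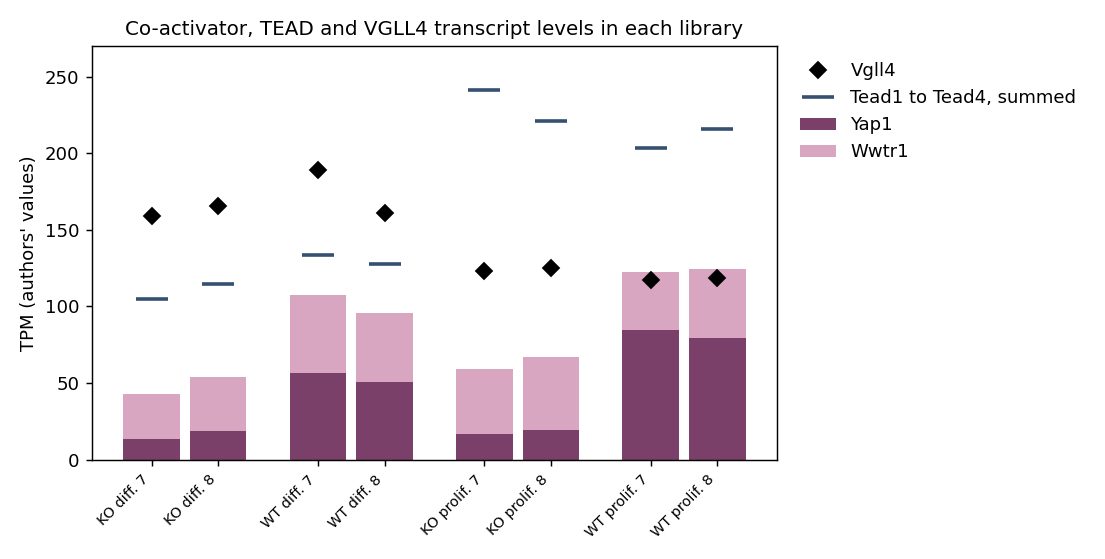
TPM of Yap1 and Wwtr1 (stacked bars from 0), of the 4 TEAD genes summed (lines) and of Vgll4 (diamonds) in each of the 8 libraries, all in the authors' deposited TPM. The summed TEAD level stands above the bar in every library, and the Yap1 segment averages 15.9 TPM in KO differentiation, 53.6 TPM in WT differentiation, 17.9 TPM in KO proliferation and 82.0 TPM in WT proliferation.

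The 4 TEADs bind the same DNA motif and recruit the same co-activators, and no TEAD passed the test between KO and WT cells in either condition. Between conditions 3 of the 4 did: Tead1 and Tead2 fell and Tead3 rose in differentiation, in KO and in WT cells. Of all genes tested, 51.8% passed between conditions in KO cells (25.1% higher and 26.7% lower) and 55.3% in WT cells (27% higher and 28.3% lower), so a passing gene is common there. Libraries of both conditions did not overlap for 75.9% of genes in KO cells and 81.2% in WT cells. Among the 7 members, 1 rose and 3 fell in KO cells, and 2 rose and 3 fell in WT cells.

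Tead2 lies on chromosome 7 from 45215792 to 45233468, plus strand, and was the most abundant TEAD in TPM. It had 54.2 and 56.3 CPM in KO differentiation and 68.5 and 65.4 CPM in WT differentiation, and 152 and 138 CPM in KO proliferation and 144 and 139 CPM in WT proliferation. Every differentiation library lay below every proliferation library by a wide gap. The log2 fold change of differentiation against proliferation was -1.40 in KO cells (SE 0.0958, adjusted p = 0.000103) and -1.08 in WT cells (SE 0.095, adjusted p = 0.000221), both by edgeR. In mean TPM Tead2 stood at percentile 81.8 of the listed genes in KO differentiation and 84.5 in WT differentiation, and at 92.8 in KO proliferation and 92.6 in WT proliferation.

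Between genotypes Tead2 differed little. In differentiation both KO libraries were below both WT libraries, at 82.5% of the WT mean (log2 fold change -0.28, 95% interval -0.50 to -0.05), which did not pass (unadjusted p = 0.0234, adjusted p = 0.934 in edgeR). In proliferation the log2 fold change was 0.04 (95% interval -0.18 to 0.27) and the libraries overlapped. The difference between these effects was -0.32 (unadjusted p = 0.0499, adjusted p = 0.981 in edgeR).

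Tead1, which lies on chromosome 7 from 112679356 to 112906784, plus strand, moved with Tead2. It had 187 and 154 CPM in KO differentiation and 176 and 168 CPM in WT differentiation, and 374 and 308 CPM in KO proliferation and 295 and 302 CPM in WT proliferation. Differentiation libraries were all below 200 CPM, and proliferation libraries were all above 290 CPM. Differentiation means were 49.9% of proliferation means in KO cells (log2 fold change -1.0, SE 0.139, adjusted p = 0.00149) and 57.6% in WT cells (-0.79, SE 0.138, adjusted p = 0.00326), by edgeR. Against WT, the KO log2 fold change was -0.01 in differentiation (95% interval -0.34 to 0.32) and 0.19 in proliferation (95% interval -0.14 to 0.52). The KO proliferation libraries did not overlap the WT ones, but within replicate 8 the log2 difference was 0.03.

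Tead3, on chromosome 17 from 28331671 to 28350805, minus strand (from 1021662 in the deposited table), went the other way and was low in proliferating cells. It had 13.5 and 20.2 CPM in KO differentiation and 28.6 and 21.8 CPM in WT differentiation, and 9.45 and 9.32 CPM in KO proliferation and 5.40 and 7.44 CPM in WT proliferation. The 4 groups did not overlap in any pair, with WT differentiation highest, then KO differentiation, KO proliferation and WT proliferation. In WT cells Tead3 rose in differentiation to 392.4% of its proliferation mean (log2 fold change 1.97, SE 0.27, adjusted p = 0.00123 in edgeR), a call kept in all 8 fits without 1 library. In KO cells it rose to 180.0% (0.85, SE 0.263, adjusted p = 0.0335 in edgeR), a call lost without KO proliferation replicate 7 (log2 fold change 0.86, adjusted p = 0.11), KO proliferation replicate 8 (0.84, 0.11) or KO differentiation replicate 8 (0.53, 0.159).

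Tead3 was thus higher in KO than in WT cells in proliferation and lower in differentiation, and neither difference passed. The log2 fold changes were 0.55 in proliferation (95% interval -0.09 to 1.18, adjusted p = 1) and -0.58 in differentiation (95% interval -1.20 to 0.04, adjusted p = 0.934), by edgeR. The difference between them was -1.12 (95% interval -2.01 to -0.23, unadjusted p = 0.0207, adjusted p = 0.981 in edgeR), and was -1.88 within replicate 7 against -0.43 within replicate 8. Of all genes tested, 428 (3.28%) were likewise higher in KO proliferation and lower in KO differentiation than in WT with no overlap of libraries.

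Tead4, on chromosome 6 from 128227143 to 128300813, minus strand, was barely detected. It had 8 and 6 counts in KO differentiation, against 19 and 10 counts in WT differentiation. It had 23 and 15 counts in KO proliferation, against 31 and 12 counts in WT proliferation. No library passed 1.64 CPM, and replicate 7 was above replicate 8 in all 4 groups. No difference between KO and WT passed, and the intervals were wide: the KO log2 fold change was -1.03 in differentiation (95% interval -2.68 to 0.61) and -0.14 in proliferation (95% interval -1.66 to 1.38). Between conditions in KO cells the libraries did not overlap, with a differentiation mean of 37.5% of the proliferation mean. That log2 fold change was -1.40 (95% interval -3.03 to 0.23, adjusted p = 0.128 in edgeR), and with a term for the replicate number it passed (adjusted p = 0.0292 in edgeR). In WT cells it was -0.51 (95% interval -2.05 to 1.03, adjusted p = 0.531 in edgeR) with overlapping libraries.

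The makeup of the TEAD pool moved with culture condition. Tead3 made up 13.2 ± 3.62% of summed TEAD TPM in KO differentiation and 16.7 ± 1.95% in WT differentiation, and 3.47 ± 0.339% in KO proliferation and 2.5 ± 0.588% in WT proliferation (SD, n = 2 each). Tead2 made up 53.7% in KO differentiation and 54.7% in WT differentiation, and 65.9% in KO proliferation and 68.6% in WT proliferation. Tead1 made up 28.1% to 32.8% in the 4 groups and Tead4 at most 0.449%. Summed TEAD TPM were 109.8 ± 7.21 in KO differentiation and 131 ± 4.41 in WT differentiation, and 231 ± 14.2 in KO proliferation and 209.6 ± 8.97 in WT proliferation. On counts per kilobase of exon, Tead2 led Tead1 in 3 of the groups by mean share, but Tead1 led in KO differentiation with 46.9% against 43.2% for Tead2. That lead rests on replicate 7 (50.6% against 41.5%), as Tead2 led in replicate 8 (44.9% against 43.3%).

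**Figure D3:**
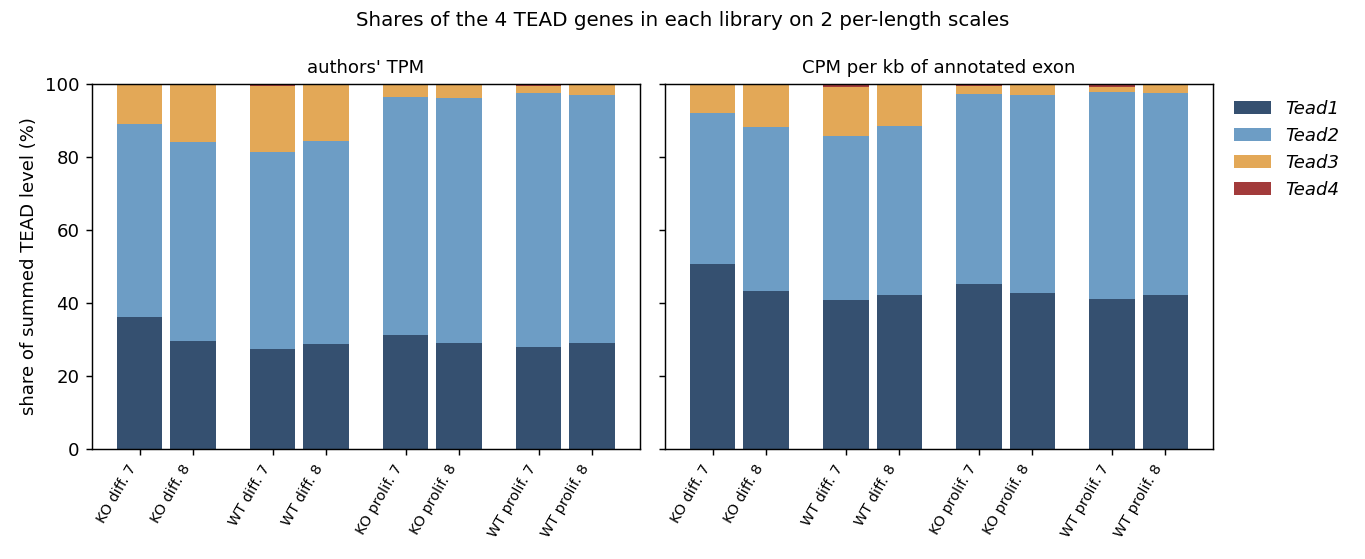
Share of each TEAD gene in the summed TEAD level (percent, axis from 0) in each of the 8 libraries, on the authors' TPM and on CPM per kilobase of annotated exon. The Tead3 segment is wider in differentiation, averaging 13.2% in KO and 16.7% in WT on TPM, than in proliferation, with 3.47% in KO and 2.5% in WT, and Tead4 is at most a thin line at the top.

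Vgll4, on chromosome 6 from 114860621 to 114970007, minus strand, overlaps the long noncoding RNA Gm38876, which is not listed in the table, so their reads cannot be separated here. It had 203 and 195 CPM in KO differentiation and 232 and 188 CPM in WT differentiation, and 162 and 153 CPM in KO proliferation and 157 and 147 CPM in WT proliferation. KO and WT libraries overlapped in both conditions, and every differentiation library was above every proliferation library. Vgll4 rose in WT differentiation (log2 fold change 0.46, SE 0.122, adjusted p = 0.0171 in edgeR), a call lost without WT proliferation replicate 7 (0.52, adjusted p = 0.0541), WT proliferation replicate 8 (0.42, 0.0957) or WT differentiation replicate 7 (0.30, 0.0911). In KO cells the log2 fold change was 0.34 with an adjusted p of 0.0545 in edgeR, which missed the threshold, and 0.35 with an adjusted p of 0.0355 in DESeq2, which passed. Between KO and WT it was -0.08 in differentiation (95% interval -0.37 to 0.21) and 0.05 in proliferation (95% interval -0.24 to 0.34).

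The ratio of Vgll4 to the co-activators it competes with was higher in KO cells in both conditions. Its denominator holds Yap1, the targeted gene. Vgll4 itself had a KO against WT log2 fold change of -0.08 in differentiation and 0.05 in proliferation. The ratio of Vgll4 to the sum of Yap1 and Wwtr1 in TPM was 3.40 ± 0.462 in KO differentiation and 1.72 ± 0.0571 in WT differentiation, and 1.97 ± 0.152 in KO proliferation and 0.956 ± 0.00164 in WT proliferation (SD, n = 2 each). The ratios of KO and WT libraries did not overlap in either condition. On counts per kilobase of exon the mean ratios were 2.09, 1.18, 1.18 and 0.75 in the same order of groups. By mean TPM the order of the 7 genes in differentiation was Vgll4, Tead2, Tead1, Wwtr1, Yap1, Tead3 and Tead4 in KO cells, and Vgll4, Tead2, Yap1, Wwtr1, Tead1, Tead3 and Tead4 in WT cells. In proliferation it was Tead2, Vgll4, Tead1, Wwtr1, Yap1, Tead3 and Tead4 in KO cells, and Tead2, Vgll4, Yap1, Tead1, Wwtr1, Tead3 and Tead4 in WT cells. In KO differentiation the libraries of the neighbours Tead1 and Wwtr1 overlapped, as did those of Yap1 and Tead3, and in WT differentiation those of Yap1 and Wwtr1 overlapped. On counts per kilobase of exon Yap1 ranked the 5th in all 4 groups, below Wwtr1, with Vgll4 (36.9 in KO and 38.9 in WT) and Wwtr1 (15.0 and 22.1) leading in differentiation and Tead2 (30.4 in KO and 29.5 in WT) and Vgll4 (29.2 and 28.2) in proliferation.

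**Figure D4:**
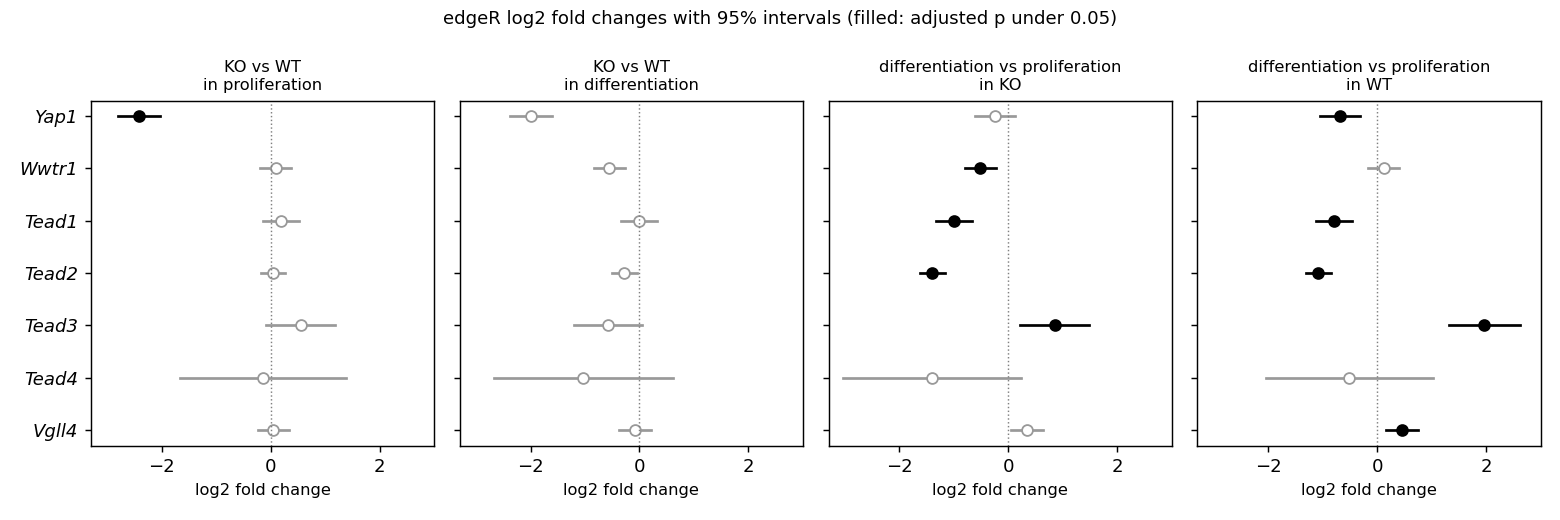
Log2 fold changes of the 7 genes with 95% intervals in 4 comparisons (edgeR), with filled points for an adjusted p under 0.05 and open grey points otherwise. Only Yap1 in proliferation is filled between KO and WT, while between culture conditions 4 genes are filled in KO cells and 5 in WT cells.

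Counting libraries that do not overlap, 5 of the 7 genes were lower in KO than in WT differentiation (Yap1, Wwtr1, Tead2, Tead3 and Tead4) and none was higher. Over all genes tested 31.5% did not overlap in that comparison, 15.9% higher and 15.6% lower. All 7 members had a fitted log2 fold change below 0 there, with a median of -0.56 against 0.01 over all genes, although those of Tead1 and Vgll4 were -0.01 and -0.08. These counts and this median include Yap1, the targeted gene. They also include Tead4, which had 8 and 6 counts in KO libraries and 19 and 10 counts in WT libraries there. In proliferation 3 of the 7 did not overlap, Yap1 lower and Tead1 and Tead3 higher, beside 30.3% of all genes (14.7% higher and 15.6% lower). The median of the members was 0.05 there, against 0.00 over all genes.

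Summed markers of other cell types differed between the groups compared. The 5 astrocyte markers (Gfap, Aqp4, Aldh1l1, S100b and Slc1a3), all detected in every library, summed to 3397 to 4074 CPM in KO differentiation and 5803 to 6146 CPM in WT differentiation. The sums did not overlap, but the single markers differed. Gfap had 449 and 1279 CPM in KO differentiation, against 2918 and 2503 CPM in WT differentiation, and Aqp4 had 222 and 1314 CPM in KO, against 587 and 1712 CPM in WT. Slc1a3 had 2378 and 1329 CPM in KO, against 2375 and 1447 CPM in WT, and S100b had 343 and 140.2 CPM in KO, against 259 and 132 CPM in WT, so that libraries of the groups overlapped for Aqp4, Slc1a3 and S100b, as they did for Aldh1l1. The 4 markers of oligodendrocyte precursors (Pdgfra, Cspg4, Olig1 and Olig2) summed to 5207 to 5523 CPM in KO proliferation and 4134 to 4261 CPM in WT proliferation. The 5 neuron markers summed to 1875 to 1946 CPM in KO differentiation and 1531 to 1567 CPM in WT differentiation, mostly from Map2. No gene of these lists passed the test between KO and WT, and their part in the values of Wwtr1, Tead2 and Tead3 was not tested. Between culture conditions the sums differed more. In KO cells the astrocyte markers summed to 3397 to 4074 CPM in differentiation and 647 to 963 CPM in proliferation, and in WT cells to 5803 to 6146 CPM in differentiation and 803 to 871 CPM in proliferation. The markers of oligodendrocyte precursors summed to 1886 to 2513 CPM in KO differentiation and 5207 to 5523 CPM in KO proliferation, and to 1801 to 1897 CPM in WT differentiation and 4134 to 4261 CPM in WT proliferation. The single precursor markers differed, as 3 were lower and 1, Pdgfra, was higher in differentiation in both genotypes. Pdgfra had 119.7 and 145 CPM in KO differentiation, against 6.61 and 7.42 CPM in KO proliferation. In WT cells it had 82.4 and 110.2 CPM in differentiation, against 3.81 and 6.38 CPM in proliferation. The markers of oligodendrocytes (3 of 4 listed in the table, Mag being at 0 in both KO groups) summed to 102 to 106 CPM in KO differentiation and 2.84 to 7.69 CPM in KO proliferation, and to 87.0 to 99.1 CPM in WT differentiation and 2.65 to 4.73 CPM in WT proliferation. These sums thus moved with the same contrast as the members that passed in edgeR. Those were Tead1, Tead2 and Tead3 in both genotypes, Yap1 and Vgll4 in WT cells, and Wwtr1 in KO cells. The part of the marker sums in the changes of these genes was not tested. Markers of microglia (3 of 5 listed in the table, at most 0.601 CPM summed) and of endothelial cells (2 of 4, at most 1.75 CPM summed) were near 0 in all groups, Csf1r being at 0 in both differentiation groups.

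Upstream of the members, 23 Hippo kinases and regulators were tested and none passed between KO and WT in either condition, with a median log2 fold change of -0.00 in differentiation and -0.05 in proliferation. The smallest unadjusted p was in each case that of Wwc2, a scaffold that promotes LATS activity. It had 48.1 and 46.6 CPM in KO differentiation, against 68.6 and 56.9 CPM in WT differentiation (log2 fold change -0.41, adjusted p = 0.934 in edgeR), and 26.2 and 28.7 CPM in KO proliferation, against 36.6 and 38.1 CPM in WT proliferation (-0.44, adjusted p = 1). Every KO library was thus below every WT library of its condition, as 265 genes (2.03%) were in both conditions.

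Between conditions the same list held 5 genes that rose and 6 that fell in KO cells, and 3 that rose and 6 that fell in WT cells. Over all genes 51.8% passed in KO cells and 55.3% in WT cells. The medians of the list were -0.12 and 0.02, beside 0.01 over all genes in each. The angiomotins, which bind YAP1 and TAZ and keep them out of the nucleus, did not all move one way, as 2 of the 3 rose. Amot rose by 1.59 in KO cells (adjusted p = 0.00498) and by 1.20 in WT cells (adjusted p = 0.0132), by edgeR. Amotl2 rose, with log2 fold changes of 3.49 in KO cells (adjusted p = 0.000269) and 3.13 in WT cells (adjusted p = 0.000296), and Amotl1 fell by 1.58 in KO cells (adjusted p = 0.000295) and by 1.49 in WT cells (adjusted p = 0.000282), by edgeR. Sav1, the partner of the MST kinases, fell by 1.05 in KO cells and by 1.11 in WT cells (adjusted p = 0.000281 and 0.000182 in edgeR). Of the LATS and MST kinase genes none passed: the log2 fold change of Lats1 was 0.14 in KO cells and 0.02 in WT cells, that of Lats2 0.85 and 0.87, that of Stk3 -0.16 and 0.10, and that of Stk4 -0.15 and -0.25. Taok3, which encodes a kinase that acts upstream of them, rose in KO cells (0.78, adjusted p = 0.00642 in edgeR) and had 0.41 in WT cells (adjusted p = 0.0622).

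Of 11 genes for YAP and TAZ turnover and 14-3-3 partners, all tested, none passed between KO and WT (medians -0.09 in differentiation and -0.03 in proliferation). Between conditions 3 rose and 2 fell in KO cells and 2 rose and 2 fell in WT cells, where 51.8% and 55.3% of all genes passed. Ywhah, a 14-3-3 gene, fell by 1.64 in KO cells and by 1.69 in WT cells on the log2 scale (adjusted p = 0.000207 and 0.000151 in edgeR). Fbxw11, which encodes a subunit of the ubiquitin ligase that marks YAP and TAZ for degradation, rose by 0.39 in KO cells and by 0.54 in WT cells (adjusted p = 0.0156 and 0.00386 in edgeR).

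Of 10 other TEAD cofactors and AP-1 subunits, 7 were tested. AP-1 factors often bind beside TEADs at enhancers. None passed between KO and WT, with medians of -0.37 in differentiation and 0.31 in proliferation. Fosl2 had 70.0 and 42.0 CPM in KO proliferation, against 35.6 and 25.7 CPM in WT proliferation (log2 fold change 0.87, adjusted p = 1 in edgeR), and Jund had 212 and 261 CPM in KO differentiation, against 396 and 323 CPM in WT differentiation (-0.60, adjusted p = 0.934). The libraries of each pair did not overlap. Jund rose in differentiation by 1.15 in KO cells and by 1.70 in WT cells (adjusted p = 0.00271 and 0.0005 in edgeR), while Jun fell by 0.96 and by 0.42 (adjusted p = 0.000631 and 0.0143).

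Downstream, 19 of 22 genes of a list of YAP/TAZ-TEAD targets known from other cell types were tested, and none passed between KO and WT. Ccn2, Ankrd1 and Foxf2 were listed but not tested, so nothing is said of them here. The median log2 fold change of the tested targets was -0.18 in differentiation, with 6 above and 13 below 0. In proliferation it was -0.00, with 9 above and 10 below 0. Tgfb2, a growth factor gene, had 113 and 139.8 CPM in KO differentiation, against 167 and 229 CPM in WT differentiation (log2 fold change -0.65, adjusted p = 0.934 in edgeR). Arhgef17 had 10.1 and 16.1 CPM in KO differentiation, against 23.5 and 33.3 CPM in WT differentiation (-1.12, adjusted p = 0.934 in edgeR). Axl had 134 and 154 CPM in KO, against 213 and 169 CPM in WT (-0.41, adjusted p = 0.934 in edgeR). For Tgfb2, Arhgef17 and Axl both KO libraries lay below both WT libraries, without passing the test. For Asap1 and Amotl2 both KO libraries lay above both WT libraries, also without passing. In proliferation Ccn1, a widely used YAP target, had 2.08 and 4.01 CPM in KO libraries, against 3.55 and 6.75 CPM in WT libraries, which overlapped (-0.76, adjusted p = 1).

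Between conditions 6 of these 19 targets rose and 1 fell in KO cells, and 7 rose and 1 fell in WT cells. Of all genes tested, 25.1% rose and 26.7% fell in KO cells, and 27% rose and 28.3% fell in WT cells. The medians of the targets were 0.23 and 0.76, beside 0.01 over all genes in each. Axl, a receptor tyrosine kinase gene, rose to 134 and 154 CPM in KO differentiation, against 26.4 and 28.3 CPM in KO proliferation (log2 fold change 2.40, adjusted p = 8.83e-05 in edgeR). It rose to 213 and 169 CPM in WT differentiation, against 21.7 and 25.3 CPM in WT proliferation (3.02, adjusted p = 3.71e-05). Igfbp3, which encodes a binding protein of insulin-like growth factors, was the target that fell, by 4.90 in KO cells and by 5.15 in WT cells (adjusted p = 8.96e-05 and 7.17e-05 in edgeR). Amotl2, Lats2 and Ptpn14 stand on this list and on that of the Hippo regulators.

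The promoters of the members were searched for the core of the TEAD motif, GGAATG or its reverse complement CATTCC, so as to show whether the letters of a TEAD site stand near the genes' own starts. Windows ran from 250 bases before to 50 bases after each annotated start (RefSeq, GRCm38.p6), and 5 of the 7 genes had a sequence. The motif was found at 4 of them (Yap1, Wwtr1, Tead3 and Vgll4) and not in the Tead2 windows, and by window in 6 of 8. It occurred in 14.7% of all 32851 windows and at 16.6% of 27025 genes. One match is shown for each, with the motif in capitals, all on the minus strand.
Yap1, chr9:8004712-8004757: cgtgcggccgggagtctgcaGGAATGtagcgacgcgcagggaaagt
Wwtr1, chr3:57576021-57576066: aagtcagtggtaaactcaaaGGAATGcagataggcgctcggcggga
Tead3, chr17:28350962-28351007: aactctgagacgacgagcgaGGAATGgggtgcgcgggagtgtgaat
Vgll4, chr6:114969260-114969305: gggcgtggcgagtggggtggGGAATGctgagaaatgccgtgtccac
Counted in bases from the annotated start, the motif began at -141 in Yap1, at -136 or -170 in Wwtr1 depending on the start, at -182 in Tead3 and at -82 in Vgll4. The Wwtr1 site lies in both Wwtr1 windows, so the count of windows holds it more than once. Another Tead3 window held 3 further matches. They began at -123 and -114, in a stretch that overlaps an annotated exon, and at 2. These are letter matches in few genes and no measure of binding.

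Across the 8 libraries the log2 CPM of Tead1 and Tead2 correlated with a Pearson r of 0.962 and those of Tead3 and Vgll4 with 0.879, while Tead1 and Tead3 had an r of -0.840 and Yap1 and Wwtr1 one of 0.521. These are descriptions over 8 libraries that share 4 groups, in which culture condition separates most genes. Among 10772 genes with a mean of at least 5 CPM, the patterns most like that of Yap1 were those of Samd4 (r = 0.950), Inhbb (0.922) and Tmem87a (0.886). Those most like Wwtr1 were Ccdc9 (0.963), Vangl1 (0.944) and Noct (0.931). For Tead1 they were Clec14a, Itgav and Dusp4 (0.990 to 0.991), for Tead2 Lrrc47, Mrpl2 and Cemip2 (0.997 to 0.998), for Tead3 Map3k12, Zfp580 and Vps37c (0.983 to 0.994), and for Vgll4 Cnnm3, Leng8 and Foxn3 (0.987 to 0.994). Tead4 is too sparse for a pattern to be read. Samd4, the gene nearest to Yap1, had 32.1 and 32.9 CPM in KO differentiation, 47.2 and 43.9 CPM in WT differentiation, 33.6 and 41.3 CPM in KO proliferation, and 51.4 and 49.2 CPM in WT proliferation.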

How the data were processed

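RNA was measured with stranded poly(A) sequencing (dUTP method, DNBSEQ), per the labels' protocols. The deposited table holds the authors' estimated counts per gene, not normalised, their TPM, their log2 fold changes and their q-values, per the file headers. Aligner, counting tool and strand setting are not stated in the labels or headers, and so not given in the sources used here. The submitters' processing notes name GRCm39, whereas 85.5% of 16878 genes matched by ID start where RefSeq GRCm38.p6 has them, so GRCm38 positions are printed. The deposited table starts Tead3 at 1021662, where RefSeq has 28331671. It also puts Yap1, Wwtr1 and Tead4 on the plus strand, where RefSeq has the minus strand. Any effect of these differences on the counts was not tested. Of 20 labelled samples, 12 were not analysed here, and 12 per-library columns of 4 libraries that match no label were not used. One line without a gene was left out.

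Estimated counts (6.51% of values not whole) were rounded. Genes were filtered with filterByExpr and tested with edgeR 4.0.16 (TMM, robust quasi-likelihood F-test, two-sided, R 4.3.3) in 1 model of 4 groups over 8 libraries (4 residual degrees of freedom). P-values were adjusted over 13046 genes by the Benjamini-Hochberg method, with 0.05 as the threshold, and the common biological coefficient of variation came to 24.1%. The fit was tested on simulated data, but the outcome is not given here, so nothing is drawn from it. With 2 libraries against 2 no permutation test can reach that threshold, so none was run. Alternatives were DESeq2 1.42.0, its size factors in edgeR, no filter, a replicate term and leaving out each library. Replicates differed by more than sampling noise (chi-square per degree of freedom 34.7 to 65.0). All 7 members were named in every comparison, with up to 4 genes of smallest p per list. Beyond that rule, the LATS and MST kinase genes, Taok3, Amot and the single astrocyte markers were added after their values were seen. Nes, Sox2, Prom1 and Pdgfra were also named outside that rule, as was Amotl2 between KO and WT. Members and lists were chosen with earlier results of these data known. Transcript sequences come from GENCODE M21 and promoters from RefSeq.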

Additional observations from a re-analysis of the deposited data

How the results depend on the processing

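Over the 7 members and 5 comparisons, 382 of 418 values kept their direction and their side of the threshold, 18 lost a call, 9 gained one and 9, all from leaving out 1 library, changed sign. The number of genes that passed between KO and WT in proliferation was 1 in edgeR, 11 in DESeq2 and 2 with the replicate block. In differentiation it was 0 in edgeR, 1 with no filter on low counts, 36 in DESeq2 and 3 with the block, and 1 member, Yap1, passed under each of these 3 alternatives. For the difference between the KO effects it was 0 in edgeR, 12 in DESeq2 and 0 with the block. Leaving out 1 library gave 0 passing genes and 0 members between KO and WT in each condition, 4924 to 6244 genes and 2 to 5 members between conditions in KO cells, and 5224 to 7440 genes and 3 to 5 members in WT cells. The cause of these differences was not tested.

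The sign changed with the library left out for Tead2 (-0.03 to 0.10), Tead4 (-0.67 to 0.68) and Vgll4 (-0.01 to 0.09) between KO and WT in proliferation, for Tead1 (-0.16 to 0.12) and Vgll4 (-0.22 to 0.08) in differentiation, for Tead4 between conditions in WT cells (-1.08 to 0.33) and for Vgll4 in the difference between the KO effects (-0.26 to 0.04). None of these passed. Between conditions in KO cells, Vgll4 passed with DESeq2's size factors in edgeR (adjusted p = 0.0498) and without WT differentiation replicate 7 (0.0351) or 8 (0.033).

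Samples with the same number deviated together (r of 0.703 between KO and WT differentiation, 0.784 between KO and WT proliferation, 0.576 between the KO conditions and 0.538 between the WT conditions), but 2 numbers and no label do not show that they are paired. With the replicate block the adjusted p in edgeR was 0.0172 for Yap1 between KO and WT in differentiation (log2 fold change -1.99), 0.0292 for Tead4 (-1.40) and 0.0185 for Vgll4 (0.34) between conditions in KO cells. The block moved the genes passing between conditions to 8358 in KO cells and 8784 in WT cells.

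On counts per kilobase of exon the shares of Tead1, Tead2, Tead3 and Tead4 were 46.9%, 43.2%, 9.46% and 0.403% in KO differentiation, 41.4%, 45.7%, 12.2% and 0.719% in WT differentiation, 43.9%, 53.2%, 2.45% and 0.498% in KO proliferation, and 41.7%, 55.9%, 1.81% and 0.599% in WT proliferation. The ratio of Wwtr1 to Yap1 was 5.56 in KO differentiation, 2.04 in WT differentiation, 6.7 in KO proliferation and 1.18 in WT proliferation on that scale. Tead4 rests on at most 31 counts in a library.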
